A study of Homo sapiens with 3 samples.

Results

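The death receptors of the tumor necrosis factor receptor superfamily and the proteins that carry their signal were followed in ribosome profiling (Ribo-seq) of HEK293T cells that expressed wild-type (WT), G245S or R273H p53. The members were taken by gene name and number 8 of the 63241 genes in the table. They are FAS, the TRAIL receptors TNFRSF10A, TNFRSF10B, TNFRSF10C and TNFRSF10D, the ectodysplasin A2 receptor EDA2R, the adaptor FADD and the initiator caspase CASP8. Ribo-seq sequences the mRNA fragments that ribosomes shield from nuclease, and the study used it to ask whether transcripts bound by mutant p53 are translated differently. HEK293T is a human embryonic kidney line whose SV40 large T antigen binds p53. Per the study's methods, each construct was delivered by lentivirus to make 1 stable line, although the genotype labels also speak of transient expression and the treatment label of both mutants names the wild-type construct. The sample titles were used to set the groups.

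All 3 groups received cycloheximide for 2 min and washes with 100 µg/mL cycloheximide, which holds ribosomes in place, and RNA in all lysates was cut with micrococcal nuclease (3 U per µg RNA, 30 min). Each group was 1 sample with 3 dishes (n = 3 dishes per group), which were pooled at reverse transcription, so group and pool cannot be told apart and p-values measure only the spread between dishes of 1 pool. The 9 libraries held 18.7 to 24.6 M expected counts (estimated footprints per gene). Footprints do not separate the amount of an mRNA from the translation of each mRNA, and cells without a p53 construct were not analysed here. Genes listed beforehand for an epithelial and embryonic kidney line were not all specific to kidney or epithelium. Of these, KRT8, KRT18, CDH2, VIM and NEFL lay above 32 CPM (counts scaled to a common library total) in all 9 libraries. PAX2 and LHX1 lay between 3.06 and 8.24 CPM. Of the markers of other cell types given here, CD3E and HBB were at 0, PTPRC, ALB, MYH6 and PECAM1 were at most 0.163 CPM, and COL1A1, a collagen gene, had a median of 29.8 CPM.

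Death receptors are cell-surface proteins that carry a death domain in their cytoplasmic tail. When FAS binds FAS ligand, or TNFRSF10A (DR4) or TNFRSF10B (DR5) binds TRAIL, the adaptor FADD is recruited and brings caspase-8 molecules together, which activate each other and start apoptosis. TNFRSF10C (DcR1) and TNFRSF10D (DcR2) also bind TRAIL, but the former has no cytoplasmic tail and the latter only a truncated death domain, so they are called decoy receptors. EDA2R binds ectodysplasin A2 and signals through TRAF proteins without a death domain. Several of these receptor genes are textbook transcriptional targets of WT p53, and G245S and R273H are hotspot changes in the domain through which p53 binds DNA.

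The 4 receptors among the members tested carried fewer footprints in both mutants than in WT, and the shared signalling proteins did not pass the test. FAS, TNFRSF10B, TNFRSF10D and EDA2R fell in G245S and in R273H, between 1.80-fold and 9.57-fold, and their mutant dishes never overlapped the WT dishes. FADD and CASP8 differed from WT by less than 1.1-fold. TNFRSF10A and TNFRSF10C had too few counts to pass the filter on low values and were not tested in the same fit. A gene was called at an adjusted p under 0.05 (Benjamini-Hochberg over 19820 genes, edgeR's quasi-likelihood test). Of the 6 members tested, 4 were called lower in G245S and 4 in R273H, and none was called higher. Over all genes tested, 24.7% were called in G245S (12.1% lower, 12.6% higher) and 28.8% in R273H (14.6% lower, 14.2% higher). The median log2 fold change of the 6 members was -1.01 in G245S and -1.06 in R273H, against medians over all genes that were within 0.01 of 0.

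**Figure D1:**
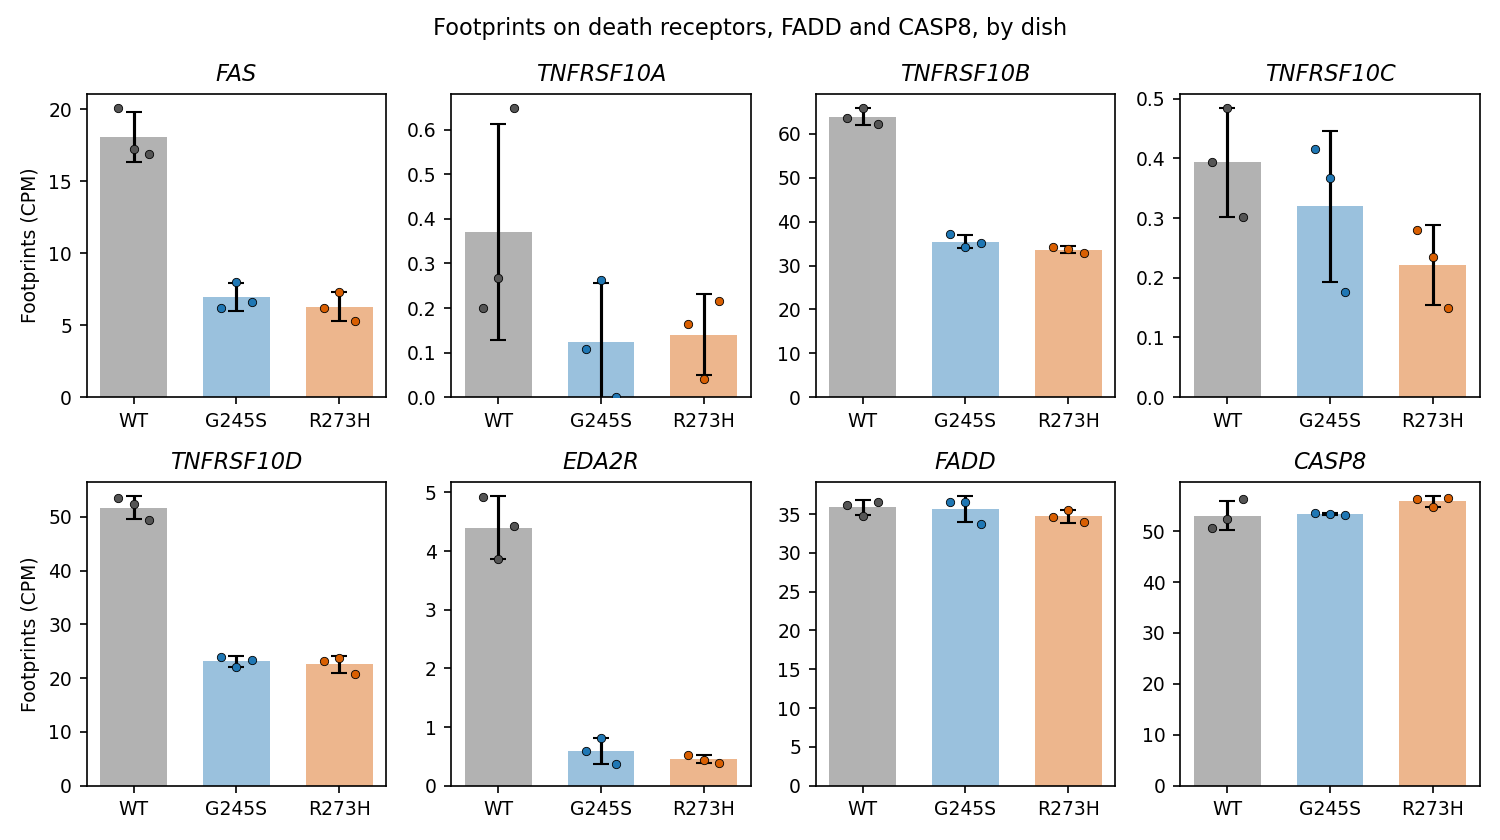
Footprints (CPM) on each of the 8 genes in WT, G245S and R273H cells. Points are the 3 dishes of a group, and bars and whiskers are their mean and SD on linear axes that start at 0 and differ between genes. FAS, TNFRSF10B, TNFRSF10D and EDA2R were lower in every mutant dish than in every WT dish, whereas the groups overlapped for FADD, and TNFRSF10A and TNFRSF10C stayed below 1 CPM.

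FAS (CD95), the receptor of FAS ligand, had 20.1, 17.3 and 16.9 CPM in the 3 WT dishes (mean 18.1 ± 1.74, SD). It had 6.18, 8.03 and 6.58 CPM in the G245S dishes (6.93 ± 0.975) and 6.22, 7.32 and 5.30 CPM in the R273H dishes (6.28 ± 1.01). The lowest WT dish was thus above the highest dish of either mutant, and the mutant dishes overlapped each other. In edgeR's test the log2 fold change was -1.39 in G245S (SE 0.111, adjusted p 3.02e-10) and -1.52 in R273H (SE 0.108, adjusted p 2.74e-11), a 2.61-fold and a 2.88-fold decrease. Ordered from the largest decrease, FAS stood at position 133 in G245S and 83 in R273H among the 19820 genes.

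FAS lies on chromosome 10, positions 88953813 to 89029605 on the plus strand in GRCh38, and shares its span with genes whose footprints were also measured. ACTA2, the smooth muscle actin gene on the opposite strand, shares 387 exon bases with FAS and went from 226, 222 and 220 CPM in WT to between 4.16 and 4.85 CPM in G245S and between 2.98 and 4.72 CPM in R273H. Its log2 fold changes were -5.65 and -5.83. Per kilobase of coding region, ACTA2 carried 11.0 ± 0.868 times the footprints of FAS in WT, 0.578 ± 0.112 times in G245S and 0.554 ± 0.105 times in R273H (SD, n = 3 dishes). The long noncoding gene ENSG00000286116, also opposite to FAS, shares 1899 exon bases with it. It had 27.1 to 37.4 counts in the WT dishes, 2.06 to 5.18 in G245S and 4.13 to 7.33 in R273H, and was called lower in both mutants. Its counts reached the minimum of 10 in the filter on low values in WT dishes only, so a call could only be lower. STAMBPL1, on the same strand with 166 shared exon bases, was not called, with log2 fold changes of -0.0045 and -0.16. None of the 979 windows of 30 bases in the FAS coding region occurs, read 5′ to 3′, in annotated transcripts of another gene. Here and below, reverse complements were not searched. Exon bases shared with a gene on the opposite strand, such as ACTA2, therefore could not give a match. The sources used here do not state if counting respected strand, and the part of antisense footprints in the FAS value was not tested.

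EDA2R (XEDAR), the receptor of ectodysplasin A2, fell most of the 6 members tested. It is on chromosome X, positions 66595637 to 66639298 on the minus strand, and no other annotated gene overlaps it. Its counts were small, with 99, 73 and 84 in the WT dishes, 11, 16 and 8 in G245S and 13, 11 and 9 in R273H. As CPM these were 4.91, 3.86 and 4.43 in WT (4.40 ± 0.529), 0.596, 0.813 and 0.374 in G245S (0.594 ± 0.220) and 0.529, 0.445 and 0.388 in R273H (0.454 ± 0.0706). The WT dishes stood far above all 6 mutant dishes, and the mutant groups overlapped. The log2 fold change was -2.89 in G245S (SE 0.244, adjusted p 2.99e-10 in edgeR's test) and -3.26 in R273H (SE 0.245, adjusted p 2.35e-11). These are 7.42-fold and 9.57-fold decreases, and placed EDA2R at positions 31 and 20 from the largest decrease.

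The genome sequence around the starts of FAS and EDA2R was read because WT p53 binds DNA at a known consensus, here 2 adjacent half-sites of 10 bases with a CNNG core in each. Matches were sought within 2000 bases of the start of the Ensembl canonical transcript, with both cores kept and at most 2 mismatches elsewhere. The consensus reads the same on both strands, so 1 search covers both. Each match is written 5′ to 3′ on the strand of the gene, with the cores in capitals. The distance after the start is to the middle of the match.
FAS, chr10:88991309-88991328, plus strand, 520 bases after the start, 2 mismatches: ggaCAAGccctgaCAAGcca
EDA2R, chrX:66638713-66638732, minus strand, 355 bases after the start, 1 mismatch: gaaCATGcctggaCGTGtcc
EDA2R, chrX:66638563-66638582, minus strand, 505 bases after the start, 2 mismatches: gggCAAGtcagggCTTGtgt
All 3 lie in intron 1 of the canonical transcript. The FAS match also lies in ACTA2 and begins 11 bases after the annotated start of that gene on the other strand. It lies in the long noncoding gene ENSG00000286116 as well. A match describes these letters and is not a measurement of p53 binding.

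Of 20033 protein-coding genes, 2.91% had such a match in a window of the same length, and 0.38% had one with at most 1 mismatch. Of the 8 members, 3 had a match, namely FAS, EDA2R and TNFRSF10B. The TNFRSF10B match, with 2 mismatches, lies in intron 1 with its middle 399 bases after the start. This match also lies in the long noncoding gene ENSG00000246130, 393 bases after the annotated start of that gene on the other strand. The window around the canonical start was added after the data were seen. Around the outermost annotated gene start, which for FAS lies far upstream, the share over all genes was again 2.91% and 2 of the 8 members had a match, without FAS.

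Among the TRAIL receptors, the death-domain receptor TNFRSF10B and the decoy TNFRSF10D carried nearly all footprints, and both fell. TNFRSF10B had 63.7, 65.9 and 62.2 CPM in WT (63.9 ± 1.87), 37.1, 34.2 and 35.1 CPM in G245S (35.4 ± 1.51) and 34.2, 33.8 and 32.8 CPM in R273H (33.6 ± 0.731). The mutant dishes overlapped each other and were all below WT. The log2 fold change was -0.85 in G245S (SE 0.0468, adjusted p 2.11e-14 in edgeR's test) and -0.93 in R273H (SE 0.0457, adjusted p 1.52e-15), or 1.80-fold and 1.90-fold. The gene is on chromosome 8, positions 23020133 to 23069031 on the minus strand. The long noncoding gene ENSG00000246130 runs opposite to it over 803 bases, without shared exon bases, and had 13.05, 23.1 and 24.0 counts in WT, 0 in all 3 G245S dishes and 0, 1.00 and 0 in R273H. RHOBTB2, also opposite with 377 shared exon bases, was not called.

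TNFRSF10D had 53.4, 52.4 and 49.4 CPM in WT (51.7 ± 2.07), 23.9, 22.0 and 23.5 CPM in G245S (23.1 ± 0.983) and 23.2, 23.7 and 20.7 CPM in R273H (22.6 ± 1.62). Again every mutant dish was below every WT dish, and the mutants overlapped. Its log2 fold change was -1.16 in G245S (SE 0.0573, adjusted p 1.74e-15 in edgeR's test) and -1.20 in R273H (SE 0.0555, adjusted p 3.92e-16), or 2.24-fold and 2.29-fold. The gene spans positions 23135588 to 23164027 of chromosome 8 on the minus strand, and no annotated gene overlaps it. Of its 1132 coding windows of 30 bases, 2.92% occur in transcripts of other genes, nearly all in TNFRSF10C, against 0.62% for TNFRSF10B.

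TNFRSF10A and TNFRSF10C were near the limit of detection in all groups. TNFRSF10A, the other TRAIL receptor with a full death domain (chromosome 8, 23190452 to 23225102, minus strand), had 4.01, 5.04 and 12.3 expected counts in WT, 2.00, 5.17 and 0 in G245S and 4.05, 1.00 and 5.02 in R273H. The WT dishes overlapped both mutants, and dish 3 held more than the other WT dishes together. The rounded sums of 21, 7 and 10 counts gave a depth-adjusted ratio of 0.325 for G245S to WT (95% interval 0.117 to 0.793, counting error only) and 0.381 for R273H to WT (0.160 to 0.845). The exact permutation test over dishes gave p = 0.2 (two-sided) for each, and 3 against 3 dishes cannot go below 0.1. In edgeR's test without the filter on low counts, over 41954 genes, the adjusted p was 0.185 and 0.232.

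TNFRSF10C, the decoy without a cytoplasmic tail (chromosome 8, 23102921 to 23117445, plus strand), had 7.95, 9.16 and 5.71 expected counts in WT, 7.66, 7.22 and 3.78 in G245S and 6.89, 5.80 and 3.45 in R273H. As CPM, the WT dishes (0.301 to 0.484) overlapped G245S (0.176 to 0.415) and lay above R273H (0.149 to 0.280). The ratio to WT was 0.805 (0.415 to 1.55) in G245S and 0.557 (0.275 to 1.10) in R273H, with an exact permutation p of 0.5 and 0.1, the latter the smallest possible here, and an adjusted p of 0.867 and 0.482 in edgeR's test without the filter. Its counts are uncertain, since 33.69% of its coding windows of 30 bases occur in other genes, most of them in the overlapping gene ENSG00000284956. Neither receptor passed edgeR's test without the filter in either mutant, and so few counts leave wide intervals. The permutation test cannot decide here, since its p cannot go below 0.1. The TNFRSF10A intervals lay wholly on the side of a decrease, but they hold counting error only and not the spread between dishes.

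The balance among the TRAIL receptors was compared per kilobase of coding region, so that genes of different length could be set side by side. The 4 receptors together carried 93.7 ± 2.83 CPM per kilobase in WT, 47.2 ± 1.91 in G245S and 45.2 ± 1.94 in R273H (SD, n = 3 dishes). The decoys made up 47.5% to 49.1% of this in the WT dishes, 42.8% to 43.5% in G245S and 42.0% to 44.8% in R273H. The ratio of TNFRSF10D to TNFRSF10B was 0.923 ± 0.0293, 0.744 ± 0.0167 and 0.764 ± 0.0413 respectively, without overlap between WT and either mutant. The ratio of FAS to TNFRSF10B was 0.372 ± 0.0373 in WT, 0.258 ± 0.0461 in G245S and 0.245 ± 0.0365 in R273H, again without overlap. The members with a death domain that bind FAS ligand or TRAIL (FAS, TNFRSF10A and TNFRSF10B) summed to 1.16 ± 0.0562 times FADD in WT. They summed to 0.595 ± 0.0175 times FADD in G245S and 0.573 ± 0.0138 times in R273H. Other death receptors, such as TNFRSF1A, were not in this sum. CASP8 to FADD was 0.644 ± 0.0324, 0.654 ± 0.0293 and 0.701 ± 0.0284.

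**Figure D2:**
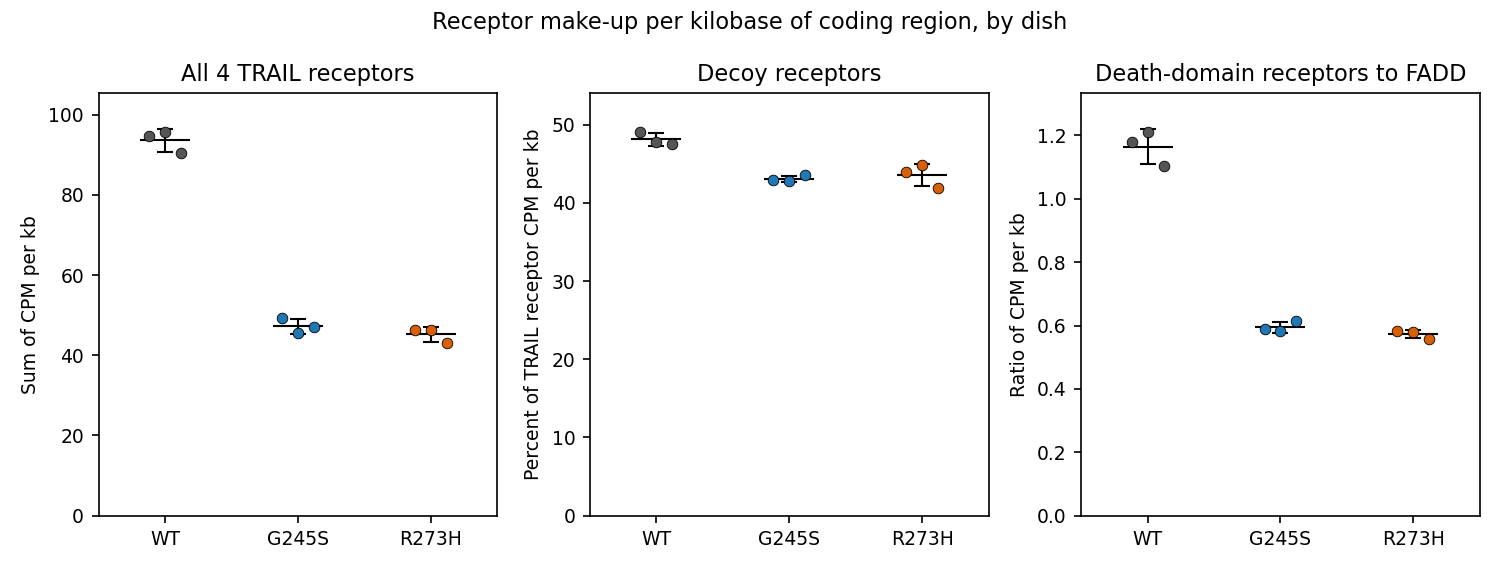
Receptor make-up per kilobase of coding region in WT, G245S and R273H. Points are dishes, and horizontal bars with whiskers are the mean and SD of 3 dishes. The sum over the TRAIL receptors lies above 90 CPM per kilobase in WT and below 50 in both mutants. The decoy share is 47.5% to 49.1% in WT and at most 44.8% in the mutants. The death-domain receptors summed in the third panel are FAS, TNFRSF10A and TNFRSF10B only, and their ratio to FADD is above 1.1 in WT only.

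Whether the receptors fell by different amounts was examined with ratios. For each pair of the 4 receptors called, the log2 ratio of the pair was compared between each mutant and WT, which makes 12 comparisons. The dishes did not overlap in 11 of them, each with an exact permutation p of 0.1 (two-sided), the smallest that 3 against 3 dishes can give, and 0.109 after Benjamini-Hochberg adjustment over the 12. The widest of these differences was in the log2 ratio of TNFRSF10B to EDA2R, which was 3.86 ± 0.204 in WT, 5.90 ± 0.559 in G245S and 6.16 ± 0.182 in R273H. For FAS to TNFRSF10D in G245S the dishes overlapped (exact permutation p = 0.3). With 3 against 3 dishes, this permutation test cannot take any of these differences past 0.05. It therefore cannot decide if the receptors changed by different amounts.

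FADD, the adaptor shared by FAS and the TRAIL receptors, showed no such difference. It had 36.2, 34.8 and 36.6 CPM in WT (35.9 ± 0.958), 36.5, 36.6 and 33.7 CPM in G245S (35.6 ± 1.66) and 34.6, 35.6 and 34.0 CPM in R273H (34.7 ± 0.813), with all 3 groups overlapping. The log2 fold change was -0.012 in G245S (95% interval -0.12 to 0.094, adjusted p 0.9 in edgeR's test) and -0.047 in R273H (-0.15 to 0.057, adjusted p 0.539). Its sign is not settled, since it turned positive in both mutants when each library's trend with GC content and coding length was removed. FADD is on chromosome 11, positions 70203296 to 70207390 on the plus strand, and the long noncoding gene opposite to it, ENSG00000254721, had 0 counts in all 9 libraries.

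CASP8, the protease that FADD brings to the receptor, had 50.6, 52.3 and 56.2 CPM in WT (53.04 ± 2.90), 53.5, 53.5 and 53.2 CPM in G245S (53.4 ± 0.169) and 56.3, 54.7 and 56.5 CPM in R273H (55.8 ± 0.987). The WT dishes spanned the G245S dishes and overlapped R273H, and every R273H dish lay above every G245S dish. The log2 fold change was 0.010 in G245S (95% interval -0.082 to 0.10, adjusted p 0.906 in edgeR's test) and 0.075 in R273H (-0.014 to 0.16, adjusted p 0.207). Without WT dish 3, the highest of the WT dishes, R273H reached 0.12 with an adjusted p of 0.0466, and without WT dish 1 the G245S value turned to -0.024. CASP8 is on chromosome 2, positions 201233443 to 201361836 on the plus strand. FLACC1, opposite to it, had at most 4 counts in a library, and 10.91% of the CASP8 coding windows of 30 bases occur in ENSG00000289698, which had at most 3.36 counts.

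**Figure D3:**
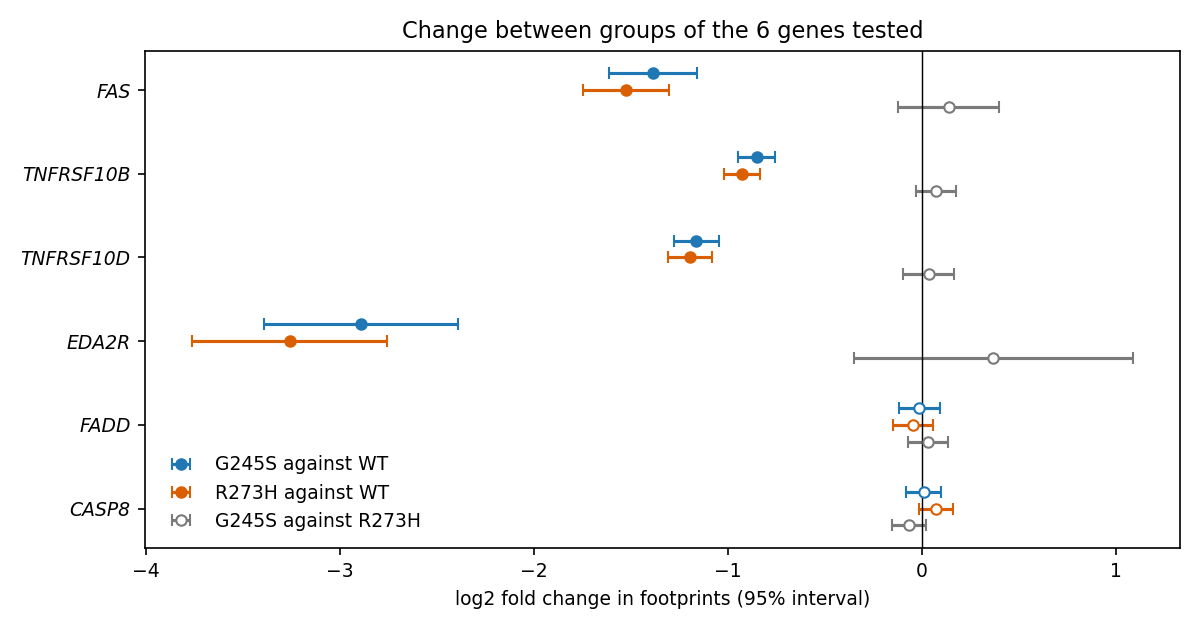
Log2 fold change of footprints with 95% intervals from edgeR's quasi-likelihood fit for the 6 genes tested, for each mutant against WT and for the mutants against each other. Filled points passed an adjusted p of 0.05. The 4 receptors lie between -0.85 and -3.26 against WT, FADD and CASP8 lie near 0, and every interval for G245S against R273H includes 0.

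The 2 mutants were also compared with each other. Of the 6 members tested, 0 were called in G245S against R273H in edgeR's test, where 2.59% of all genes were called, and none had an unadjusted p under 0.05 (the lowest was 0.143, for TNFRSF10B). DESeq2's Wald test also called 0, and gave FAS and EDA2R no adjusted p. The log2 difference was 0.14 for FAS (95% interval -0.12 to 0.40), 0.075 for TNFRSF10B (-0.027 to 0.18), 0.035 for TNFRSF10D (-0.094 to 0.16) and 0.37 for EDA2R (-0.35 to 1.09). A difference of up to 1.13-fold for TNFRSF10B, but of up to 2.13-fold for EDA2R, thus lay inside the intervals. For FADD and CASP8 it was 0.034 (-0.069 to 0.14) and -0.065 (-0.15 to 0.023). The comparisons of the mutants with WT share the WT dishes, and their values are therefore given side by side only.

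Ordered by CPM per kilobase of coding region in WT, FADD came first with 55.4 to 58.3 over the dishes, followed by TNFRSF10B with 47.0 to 49.8, TNFRSF10D with 42.6 to 46.0, CASP8 with 35.1 to 39.1, FAS with 16.8 to 19.9 and EDA2R with 4.31 to 5.50. TNFRSF10C, with 0.386 to 0.620, overlapped TNFRSF10A, with 0.142 to 0.461. No other neighbours in this order overlapped. In G245S, CASP8 (36.9 to 37.1) stood above TNFRSF10B (25.8 to 28.1) and TNFRSF10D (18.97 to 20.6), FAS was at 6.13 to 7.97, and EDA2R (0.418 to 0.910) overlapped TNFRSF10C (0.226 to 0.533). In R273H the order was the same, with CASP8 at 38.0 to 39.3, TNFRSF10B at 24.8 to 25.9, TNFRSF10D at 17.8 to 20.5, FAS at 5.26 to 7.26 and EDA2R at 0.434 to 0.591. In WT cells CASP8 was thus below both TRAIL receptors, and in the mutants above them. These levels assume that footprints fall on the coding region, which the sources used here do not state for the counts.

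The genes whose profile over the 9 libraries was most like that of each fallen receptor were named by the smallest Euclidean distance between centred log2 CPM values, among tested genes whose mean count was 100 or more. For FAS these were PLTP (distance 0.448), a phospholipid transfer protein, and AEN (0.511), an apoptosis-enhancing nuclease. For TNFRSF10B they were AGRN (0.121), the proteoglycan agrin, and PMAIP1 (0.139), which encodes the BH3-only protein NOXA. For TNFRSF10D they were LRP10 (0.172), a lipoprotein receptor relative, and FBXW7 (0.192), a substrate receptor of a ubiquitin ligase. For EDA2R they were DDB2 (0.742), which recognizes damaged DNA, and TYMSOS (0.778), a transcript opposite to TYMS. Each distance is over 9 libraries and includes the difference between groups.

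The wider pathway was described with a list of 48 other genes, from ligands to the substrates of caspase-8, of which 34 passed the filter on low counts. Of these 34, 10 were called in each mutant (29.4%), 8 of them lower and 2 higher, beside the 24.7% and 28.8% over all genes. By direction, 23.5% of the list was lower, above the 12.1% and 14.6% over all genes, and 5.88% was higher, below the 12.6% and 14.2%. These shares depend on the processing. With each library's trend with GC content and coding length removed, 7 genes of the list were lower and 5 higher in each mutant. Over all 13619 genes in that fit, 2145 (G245S) and 2340 (R273H) were lower, and 2935 and 2928 higher. In the main fit, the median log2 fold change of the list was -0.014 and -0.017. Its changes were small beside those of the receptors. In G245S against R273H, 0 of the 34 were called in edgeR's test, with 6 at an unadjusted p under 0.05, and DESeq2's Wald test called 0 of the 14 to which it gave an adjusted p.

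The ligands were scarcely detected. FASLG, which encodes FAS ligand, had 1 count in 1 of the 9 libraries, and TNFSF10, which encodes TRAIL, had between 1 and 8 counts per library. EDA, the ligand gene of EDA2R, was the only one of 7 ligand genes tested and was not called. Of 5 other death receptor genes, TNFRSF1A, TNFRSF21 and NGFR were tested and none was called. TNFRSF1A (TNFR1), with 33.3 ± 2.81 CPM in WT, had log2 fold changes of 0.037 (SE 0.0570) and -0.091 (SE 0.0561). The necroptosis genes RIPK3 and MLKL and both soluble decoy receptor genes on the list did not pass the filter.

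Of the 9 adaptors and complex members, EDARADD, the death-domain adaptor of the EDAR receptor, rose in both mutants, from 43.4 ± 3.18 CPM in WT to 52.3 ± 1.37 in G245S and 51.3 ± 1.61 in R273H (log2 fold changes 0.27 and 0.24, adjusted p 0.000201 and 0.000413 in edgeR's test). RIPK1, the kinase of TNFR1 signalling, fell in both, by 0.21 and 0.16 on the log2 scale. TRAF2, an adaptor of TNF receptor signalling, rose in G245S by edgeR's test (log2 fold change 0.24, adjusted p 0.0183) and had 0.061 (adjusted p 0.588) in R273H. It had 20.1, 20.3 and 16.7 CPM in WT and 22.0 to 23.4 CPM in G245S, and the call was lost without WT dish 3 (0.16, adjusted p 0.134) and without G245S dish 2 (0.21, adjusted p 0.0815). The other 6 were not called in either mutant.

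Among the 6 tested relatives and inhibitors of the initiator caspase, CFLAR, which encodes the caspase-8 inhibitor c-FLIP, fell in both mutants. It had 24.1, 24.8 and 24.6 CPM in WT, 18.5, 19.7 and 17.9 in G245S and 19.04, 17.7 and 18.6 in R273H, so that the mutants overlapped each other and lay below WT. In edgeR's test it changed by -0.39 in G245S on the log2 scale (SE 0.0644, adjusted p 3.73e-05) and by -0.41 in R273H (SE 0.0624, adjusted p 1.02e-05). Per kilobase, CFLAR was 0.462 ± 0.0212 times CASP8 in WT, 0.350 ± 0.0168 times in G245S and 0.330 ± 0.00731 times in R273H. PEA15, a death-effector-domain protein that binds FADD and caspase-8, fell by 0.18 on the log2 scale in each mutant. FAIM, an inhibitor of FAS-induced apoptosis, rose in R273H (0.20, adjusted p 0.00219) and had 0.092 (adjusted p 0.181) in G245S, where it was called without G245S dish 2 (0.15).

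Of the 8 ubiquitin regulators tested, CYLD, a deubiquitinase of the TNFR1 and RIPK1 complexes, fell in both mutants, from 24.5 ± 0.399 CPM in WT to 17.7 ± 0.788 in G245S and 17.2 ± 0.950 in R273H. Its log2 fold changes, -0.47 in G245S (SE 0.0661, adjusted p 3.69e-06 in edgeR's test) and -0.51 in R273H (SE 0.0642, adjusted p 5.38e-07), were the largest decreases among the pathway genes called. BIRC2, a ubiquitin ligase, was called lower in G245S and OTULIN, a deubiquitinase, in R273H; whether these effects differ between the mutants was tested in G245S against R273H, where neither was called.

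Downstream of caspase-8, 3 of 7 genes were lower in each mutant. BID, the BH3-only protein that caspase-8 cleaves to reach the mitochondria, had 66.0 ± 1.45 CPM in WT, 51.4 ± 2.78 in G245S and 55.0 ± 1.75 in R273H (log2 fold changes -0.36 and -0.26, adjusted p 4.39e-07 and 2.68e-05 in edgeR's test). CASP6, an effector caspase, had 26.3 ± 1.90, 21.0 ± 0.977 and 22.3 ± 0.770 CPM (-0.32 and -0.24). DFFA, the inhibitor of the caspase-activated DNase, was called lower in R273H (-0.18).

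**Figure D4:**
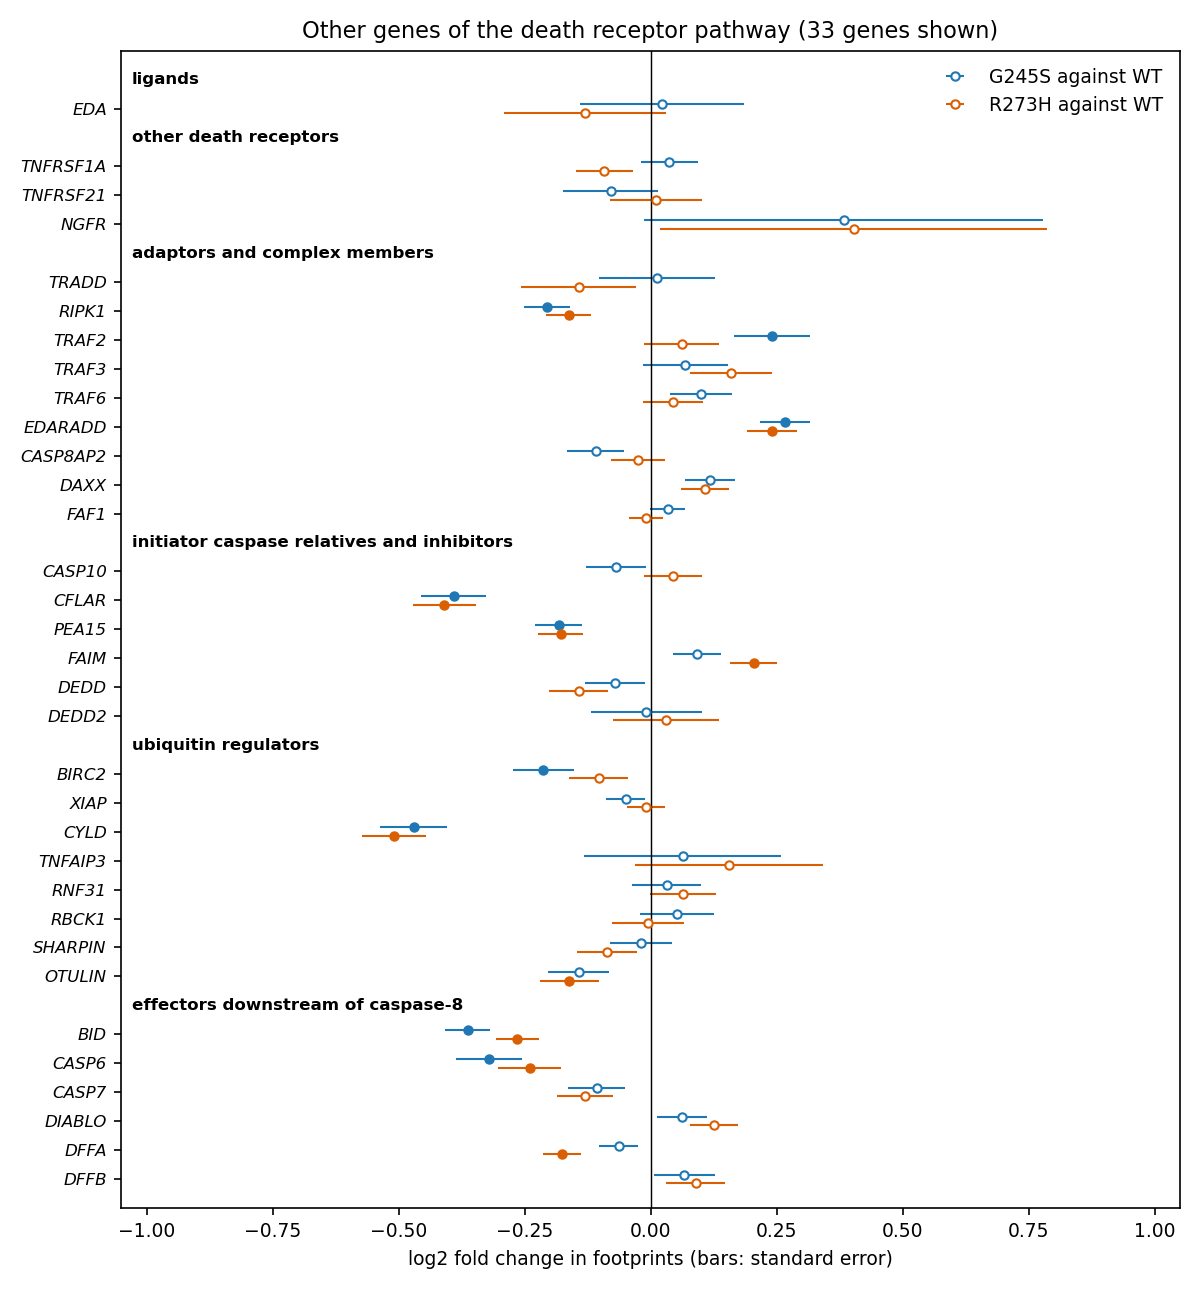
Log2 fold change of footprints with standard errors for 33 of the 34 tested genes of the wider pathway, grouped by role, in G245S against WT and R273H against WT. Filled points passed an adjusted p of 0.05 in edgeR's test. CYLD, CFLAR, BID and CASP6 lie lowest among the genes called, between -0.24 and -0.51, EDARADD lies at 0.27 and 0.24, and NGFR, with wide errors, was not called.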

How the data were processed

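Footprint libraries came from 3 samples (WT, G245S and R273H p53), each with 3 dishes. The authors trimmed reads with Trim Galore and aligned them to GRCh38 with STAR, and the deposited table holds expected counts per gene, not scaled for depth or length. The counting tool, its use of strand and the annotation are not given in the sources used here. In each library 61.5% to 63.7% of values above 0 were fractional, and values of near-identical genes are uncertain.

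Counts were rounded, and R 4.3.3 with edgeR 4.0.16 was used for the tests (TMM, filterByExpr, robust glmQLFit, glmQLFTest, two-sided) in 1 fit of 9 libraries with group as the only term, and a gene was called at an adjusted p under 0.05. TMM factors were 0.987 to 1.01, and the biological coefficient of variation was 2.58%. DESeq2 1.42.0, other normalizations, no filter, unrounded counts, only 6 libraries, a replicate block, a trend correction and leaving out each dish were alternatives. CPM are unrounded counts over TMM-scaled totals. Coding lengths and spans came from GENCODE v44. Scripts were tested on simulated data.

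Named genes were all members, the pathway genes called with the 4 largest changes in each direction per mutant, the 2 nearest profiles of each member called in both mutants, and genes overlapping a member. The members and lists were chosen with earlier results of these data known. RIPK1, PEA15, BIRC2, OTULIN, DFFA, TNFRSF1A and the undetected genes were named after their values were seen. The values of 1 gene of the pathway list and 1 marker are not reported here.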

Additional observations from a re-analysis of the deposited data

How the results depend on the processing

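The 4 receptors called in each mutant against WT kept their direction and call under all 18 alternatives, and 4 members were called in each, except 5 in R273H without WT dish 3, where CASP8 was added. Of 696 alternative values of single genes, 671 kept direction and side of the threshold. Against WT, the alternatives called 7 to 13 pathway genes in G245S and 8 to 13 in R273H, beside 10 in each main fit. The number of pathway genes called in G245S against R273H, 0 in the main fit, was 1 with the replicate block (DFFA), 1 with each library's trend with GC content and coding length removed and 1 with both (BID, log2 difference -0.15 in each), and 0 to 1 when a dish was left out (FAIM without G245S dish 3, -0.18). FADD values turned with the trend removed, alone or with the replicate block, to 0.025 and 0.025 in G245S, 0.059 and 0.059 in R273H, and -0.033 and -0.034 between the mutants. When a dish was left out, the log2 value ranged from -0.034 to 0.032 for FADD in G245S (0.0056 without WT dish 3), from -0.024 to 0.058 for CASP8 in G245S, from -0.022 to 0.11 for TRAF2 in R273H (-0.00030 without R273H dish 2), and between the mutants from -0.021 to 0.074 for TNFRSF10D, from -0.0010 to 0.078 for CYLD and from -0.021 to 0.054 for CFLAR (-0.0095 without R273H dish 2). The TRAF2 call in G245S was also lost with DESeq2 (adjusted p 0.0808), and FAIM was called in G245S with the trend removed (0.15). The causes were not tested. DESeq2 called 3079 and 3573 genes in all against 4900 and 5707 with edgeR. Between the mutants, 513 genes were called, 1262 with the replicate block and 162 to 712 with a dish left out. Same-numbered dishes of different groups correlated in their deviations from the group means (r 0.0424 to 0.229, 4 of 9 pairs over 0.1, and 8 of 9 libraries matched their own number best), a hint that the labels do not give as a pairing; the block left 4, 4 and 0 members called. Depth limits TNFRSF10A, TNFRSF10C and EDA2R, with mean counts of 4.29, 6.40 and 36.0 per library.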
